A study of Mus musculus with 3 samples.

Results

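A group of type 2 conventional dendritic cells (cDC2s) from mouse tumours that held transcripts of Tbc1d4, Ccr6, Ltb, Adam23 and related genes is described here. Its members were chosen by a rule on unique molecular identifiers (UMIs, each standing for 1 captured mRNA molecule). A member was a barcode outside the deposited table of cDC1s, with at least 1000 genes detected and under 10% of UMIs from mitochondrial genes. It held at least 1 UMI of Flt3, none of Xcr1, Ccr7, Cd3e, Ncr1 and C1qa, and at least 1 UMI of each of at least 3 of the 7 rule genes Tbc1d4, Ppp1r14a, Adam23, Ccr6, Lysmd2, Timd4 and Ltb. In all, 469 of 30209 deposited barcodes were members, which is 469 of the 20378 cells outside the cDC1 table that met the quality limits and 469 of the 3892 cells that met every condition but the 7 genes (called the gate below).

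The study compared 3 genotypes of mice on a C57BL/6J background, 6 to 20 weeks old and co-housed, each bearing MCA205 fibrosarcoma lines that express LifeAct and ovalbumin (LA OVA), injected in both flanks and collected on day 5. WT mice were set beside sGSN-/- mice, which lack secreted gelsolin, an actin-severing plasma protein, and beside sGSN-/-Clec9a-/- mice, which lack in addition DNGR-1, the receptor on cDC1s for F-actin exposed by dead cells, encoded by Clec9a. Tumours were pooled by genotype and gave 1 droplet library each, so that no genotype had a replicate. From live CD45+CD11c+MHCII+CD88- cells negative for lymphocyte, granulocyte and erythroid antigens, 3 fractions were sorted, cDC2s by Sirpa, cDC1s by XCR1 and pre-cDCs by CD135 with CD43, and then mixed in set proportions, so that no share below is a share of the cells of a tumour.

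Conventional dendritic cells take up antigen in tissues and present it to T cells. cDC2s carry Sirpa and CD11b, present antigen chiefly on MHC class II to CD4+ T cells, and are a mixed population in which cells close to monocytes in expression stand beside others that are not. Ltb encodes lymphotoxin beta, a membrane-bound cytokine of the tumour necrosis factor family that signals through the lymphotoxin beta receptor and the non-canonical NF-kB pathway. Ccr6 encodes the receptor for the chemokine CCL20. Tbc1d4 encodes a GTPase-activating protein of Rab proteins, best known for its control of glucose transporter traffic, Adam23 a membrane protein of the ADAM family without protease activity, Ppp1r14a an inhibitor of myosin phosphatase, Timd4 the phosphatidylserine receptor TIM-4, and Lysmd2 a protein with a LysM domain.

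The libraries held 176578136 UMIs (WT), 109270958 (sGSN-/-) and 113411930 (sGSN-/-Clec9a-/-), and 26 to 28 barcodes were shared by any pair of them. Clec9a was counted 5494 times in the cDC1s of the WT library, 3943 times in those of the sGSN-/- library and 2 times in those of the sGSN-/-Clec9a-/- library, as its label states. Gsn, whose counts do not separate the secreted from the cytoplasmic form, was at 368, 362 and 364 CPM (counts per 1000000, of the summed UMIs of a group of cells in a library) in the subset in the same order, and so did not check the sGSN-/- label. Members had a median of 14059, 13848 and 12613 UMIs per cell, and their summed counts reached 4510475, 1658535 and 1355597 UMIs.

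The WT library held 273 members, 13.8% of its 1977 gate cells (exact 95% Clopper-Pearson interval 12.3 to 15.4). The sGSN-/- library held 105, which was 11.8% of 892 (9.73 to 14.1), and the sGSN-/-Clec9a-/- library 91, which was 8.90% of 1023 (7.22 to 10.8). The interval of the sGSN-/-Clec9a-/- library lay below that of WT, while that of the sGSN-/- library overlapped both. These intervals cover counting error only, and with 1 library per genotype and a mixed sort the order cannot be told apart from the pool of mice, the sort or the library. The share depended on depth as well as on the cells: when each cell was thinned to 5000 UMIs, members fell to 6.16%, 5.48% and 3.65% of the gate.

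Most members lay close to the threshold. Of all gate cells, 1775 held none of the 7 genes, 1096 held 1 and 552 held 2. Members with 3 numbered 246, those with 4 were 120, those with 5 were 74, those with 6 were 25, and 4 cells held all 7. In the WT library, the median depth of cells with 2 rule genes was 14064 UMIs and that of cells with 3 was 14535, against 11411 for cells with none.

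The following levels of the rule genes are a description, since these values chose the members. Tbc1d4, on the minus strand of chr14:101442360-101609191 (GRCm38/mm10), was at 301.5 CPM in WT, 264.7 in sGSN-/- and 217.6 in sGSN-/-Clec9a-/- members (261 ± 42.1, SD, n = 3 libraries). The cDC1s held 160 ± 12.1 CPM of it and the other cDC2s defined below 25.4 ± 2.74, so that Tbc1d4 was shared with the cDC1s. Ltb (chr17:35194439-35196320) was at 199.3, 197.8 and 230.9 CPM in members (209 ± 18.7). It was at 41.2 CPM in other cDC2s and 2.96 in cDC1s, and NK cells held 136 CPM. Ccr6 (chr17:8236043-8257141) was at 48.55, 50.04 and 47.95 CPM in members and at 1.18 in other cDC2s, with the narrowest spread over libraries of the 7 genes (SD 1.08).

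Adam23 (chr1:63445891-63596276) was at 29.9, 34.4 and 37.6 CPM in members and at 0.551 in other cDC2s. Ppp1r14a was at 58.6 ± 4.61 CPM against 1.55, and the cDC1s held 12.5. Timd4 was at 57.3 ± 8.66 CPM in members, 1.71 in other cDC2s, 6.43 in pre-cDCs and 33.7 in cDC1s. Lysmd2 was at 25.2 ± 5.12 CPM against 0.323, with 6.95 in NK cells. The 7 genes thus fell into those that cDC1s also held at over 10 CPM (Tbc1d4, Timd4, Ppp1r14a), those that NK cells also held (Ltb, Lysmd2), and Ccr6 and Adam23, which were low in all 6 of the other groups of cells measured. Of these groups, other cDC2s and pre-cDCs were limited to at most 1 rule gene, so their low levels were partly set by that choice. The 552 gate cells with 2 rule genes were in neither of them.

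**Figure D1:**
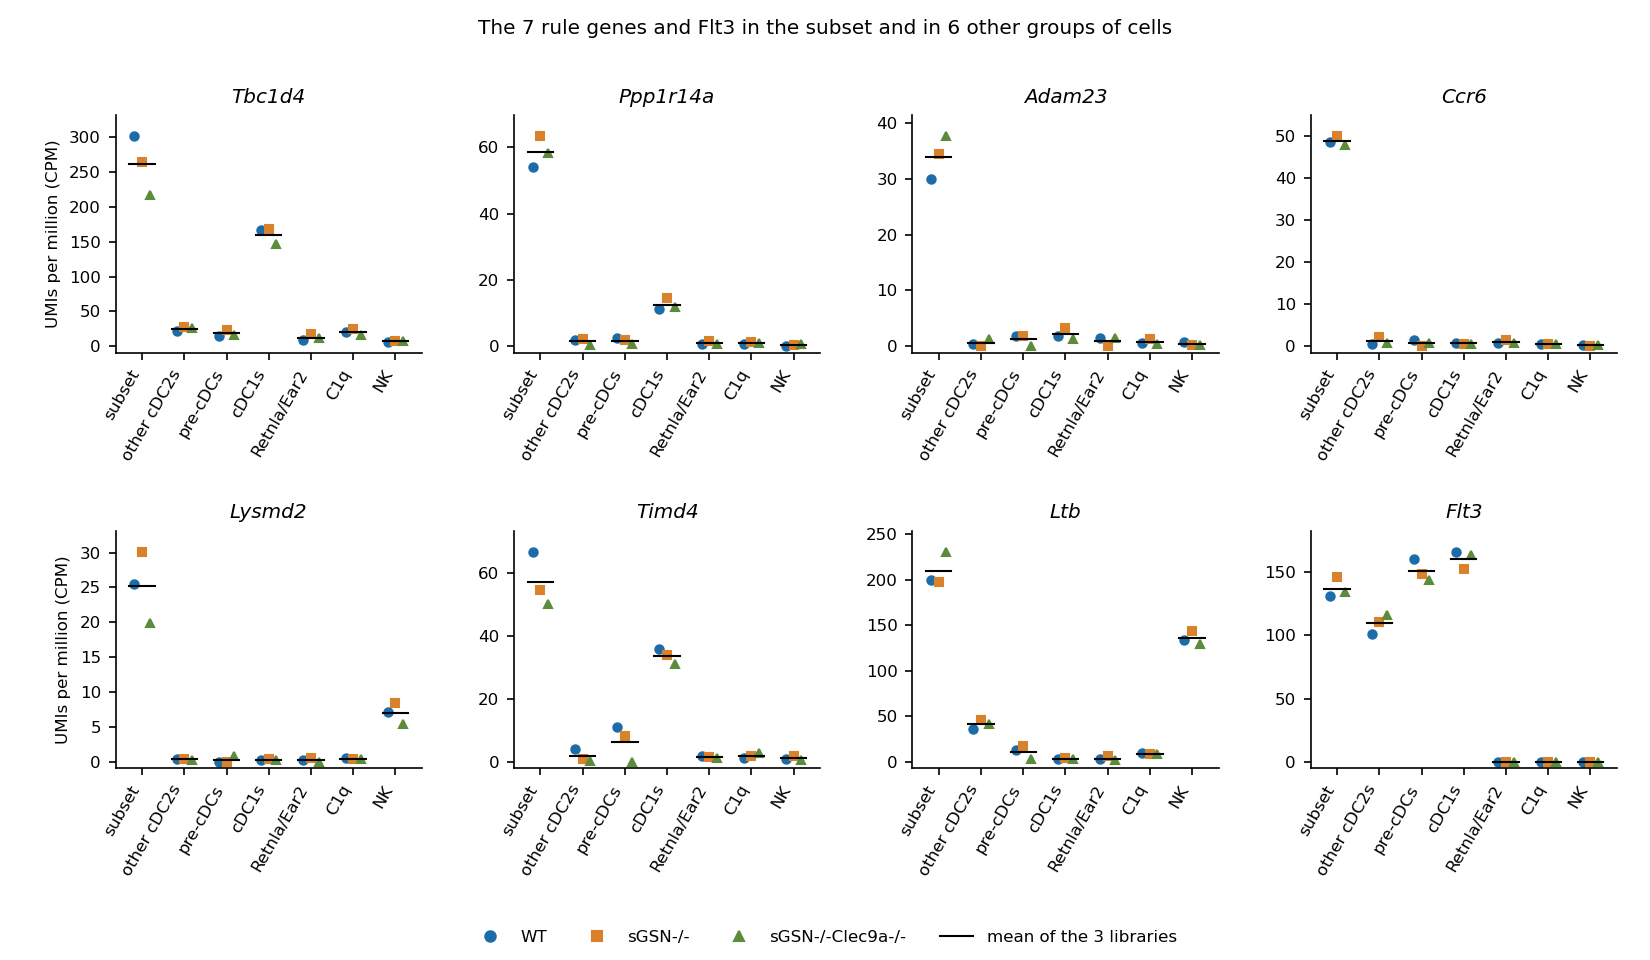
Levels of the 7 rule genes and of Flt3 (y axes, CPM, each from 0) in the subset and in 6 other groups of cells. Symbols are the 3 libraries and lines their means. Ccr6 and Adam23 were low in every group but the subset, and other cDC2s and pre-cDCs were limited to at most 1 rule gene. Tbc1d4 was also at 160 CPM in cDC1s and Ltb at 136 CPM in NK cells.

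Few members held every gene of the rule. Ltb was detected in 91.5% of the 469 members, Tbc1d4 in 81.7%, Ppp1r14a in 54.6%, Ccr6 in 53.3%, Timd4 in 35.6%, Lysmd2 in 31.8% and Adam23 in 28.1%. Free RNA in droplets gives UMIs in cells that lack a gene, and in C1q macrophages, whose median depth of 15097.5 to 17509 UMIs was above that of the members, Tbc1d4 was found in 15.6% of cells, Ltb in 8.60% and Ccr6 in 0.811%. After thinning to 5000 UMIs, Tbc1d4 was found in 56.7% of members against 6.88% of C1q macrophages, and Ltb in 63.1% against 3.21%.

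Gate cells with 1 of these genes held the others more often than gate cells without it. Of the 354 gate cells with Ccr6, 80.2% also held Ltb, against 26.5% of those without. Tbc1d4 was found in 57.6% of gate cells with Ccr6 and in 27.4% of those without. When members were chosen on the other 6 genes alone, Tbc1d4 was found in 71.2% of the WT cells with at least 3 of them and in 27.3% of their other cDC2s with at most 1 of them, and Ccr6 in 40.9% against 4.92%. When cells were chosen on a random part of their UMIs and measured on the remainder, Ltb was at 246 CPM in the cells chosen as members against 54.8 in the other cDC2s, and Ccr6 at 42.5 against 4.88. Both are further descriptions of the same cells on which the 7 genes were picked.

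The markers of cDC2s were present in most members, although no deposited annotation named these cells as cDC2s. Sirpa was detected in 77.6% of members, Itgam in 67.6%, Cd209a in 67.2%, Clec10a in 65.5% and Mgl2 in 56.9%. At least 2 of these 5 genes were found in 91.3% of members and none in 10 cells. The summed level of the 6 cDC2 markers (these 5 and Irf4) was 1361 to 1481 CPM over the libraries, against 1625 to 1709 in other cDC2s, for which 2 of them were required, and 57.8 to 60.8 in cDC1s. Pre-cDCs, defined below, held 1321 to 1363 CPM, the C1q macrophages 1009 to 1101 and a further population marked by Retnla and Ear2 1930 to 2307, so that this sum set the members apart from cDC1s more than from these cells. The cDC1 markers other than Xcr1 summed to 285 to 361 CPM in members and to 2331 to 2470 in cDC1s, and Irf8, which drives cDC1 development, was at 83.6 CPM in members and 1198 in cDC1s.

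Markers of other cells differed by list. The monocyte list summed to 1107 to 1282 CPM in members, 1798 to 1844 in other cDC2s and 809 to 953 in cDC1s. The plasmacytoid list was at 377.0 to 471.5 CPM against 333 to 337 in other cDC2s, which lack Siglech by definition. The list of RORgt-positive antigen-presenting and innate lymphoid cells was at 97.4 to 134 CPM against 78.9 to 93.3. C1q macrophages held 91.4 to 99.5 CPM of this list and the Retnla and Ear2 cells 87.8 to 106. Its genes Aire, Itgb8, Cxcr6, Il22 and Il23r were at 0 in members of all 3 libraries. The only tested gene of the list, Il7r, was higher (log2 0.47), with an adjusted p by edgeR of 0.277 without the WT library. The NK list without Ncr1 summed to 15.5 to 26.5 CPM in members against 5492 to 6460 in NK cells, and the T cell list without Cd3e to 5.99 to 9.04 CPM. Of the B cell genes, Ms4a1 and Pax5 were at 0 in all 3 libraries, which held 4510475, 1658535 and 1355597 UMIs. The B cell list as a whole summed to 61.0 to 81.4 CPM in members against 45.5 to 50.5 in other cDC2s and 128 to 151 in pre-cDCs, most of it Ighm, the immunoglobulin heavy chain mu gene. Ighm was its only tested gene, and was higher in the comparison with other cDC2s below (71.9 ± 11.6 CPM against 45.7 ± 2.72, log2 0.60, adjusted p = 0.00567 by edgeR). S100a8 and S100a9 of neutrophils were at 0 too, and the remainder of the neutrophil and mast cell list, 151 to 170 CPM, was mostly Kit. Macrophage markers without C1qa summed to 116 to 256 CPM in members against 275 to 321 in other cDC2s and 6964 to 7660 in C1q macrophages.

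The members were not uniform in Cd7, a gene of early dendritic cell progenitors in this sort. It was found in 239 members (51.0%, 46.3 to 55.6) and not in the remaining 230, and Siglech in 15.1%. The pre-cDC list without Flt3 summed to 142 to 270 CPM in members, between the 89.1 to 95.8 of other cDC2s, which lack Cd7 by definition, and the 1181 to 1397 of pre-cDCs. Cell cycle genes Mki67 or Top2a were found in 27.9% of members. Il12b was found in 4 cells, 1 of which, from the sGSN-/- library, held 62 of its 65 UMIs, and 1 cell held 45 of the 58 UMIs of Fscn1, both genes of activated dendritic cells.

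Members with and without Cd7 differed in some genes and not in others, which is given with no test because the split is by a gene of the same cells. Prnp was at 97.6, 142.0 and 129.9 CPM in members with Cd7 and at 44.6, 23.1 and 45.4 in those without. Shisa9 was at 28.6, 29.3 and 27.4 CPM with Cd7 and at 9.71, 8.15 and 15.6 without. The values of these 2 genes did not overlap between the 2 sets of members, but the share of all genes without overlap in this split was not counted. H2-Oa was at 346 ± 37.0 CPM with Cd7 and 329 ± 31.5 without, and H2-DMb2 at 502 ± 36.6 and 445 ± 40.7, and each of these 2 genes overlapped.

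The first comparison asked how the subset differed from cDC2s with at most 1 of its genes. Other cDC2s were gate cells with at most 1 of the 7 rule genes, at least 2 of Sirpa, Cd209a, Clec10a, Itgam and Mgl2, and no Cd7 or Siglech (1046 cells: 564, 190 and 292 by library). The conditions on cDC2 genes, Cd7 and Siglech were not asked of members, of which 114, 37 and 42 by library met them. Held to them, members gave adjusted p-values by edgeR of 0.288 (Ighm), 0.0946 (Cxcr4), 0.34 (Runx3), 0.523 (Rbpj) and 0.157 (Dusp1). Of the named and listed log2 fold changes of both comparisons, 164 then kept direction and side, 31 no longer passed and 3 changed sign. Counts were summed per library and group and compared by edgeR's quasi-likelihood test (3 sums against 3) with Benjamini-Hochberg adjustment at 0.05. The genes used to choose either group were left out. Since the 7 rule genes were themselves picked on these cells, genes that go with them were bound to differ, and the calls below give sizes and not independent evidence that the subset exists.

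Of 9488 genes tested, 456 (4.81%) were higher and 378 (3.98%) lower in the subset than in other cDC2s, or 8.79% in either direction. By at least 2-fold, 139 were higher and 98 lower. The values of the 3 libraries did not overlap for 13.0% of genes in the higher direction and for 10.8% in the lower. The 3 libraries differ in genotype and hold pooled mice, so the spread behind these p-values is between libraries and not between animals of a group. Without the WT library, which held 273 of the 469 members, the calls fell to 123 higher and 104 lower.

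The gene with the largest increase was Shisa9, at 19.95, 19.90 and 20.66 CPM in the subset and at 0.115, 0.727 and 0.261 in other cDC2s. It encodes a protein first described as an auxiliary subunit of AMPA receptors (chr16:11984113-12270902), and its log2 fold change was 6.06 (SE 0.38, adjusted p = 4.14e-08). It was found in 11.7% of members, so that its level came from a minority of them. Cyp7b1, an oxysterol hydroxylase, was at 26.2, 31.4 and 30.3 CPM against 0.345, 2.91 and 3.66 (log2 4.02, SE 0.39, adjusted p = 6.83e-06). Prnp, the prion protein gene (chr2:131909928-131938429), was at 73.4, 89.2 and 81.9 CPM against 8.97, 8.36 and 9.15, or 8.88-fold higher (SE 0.14 on the log2 scale, adjusted p = 3.78e-10). Cyp7b1 and Prnp were not particular to the subset, since pre-cDCs held 44.7 ± 9.05 and 50.1 ± 21.4 CPM of them, and both were, like Shisa9, higher in members with Cd7.

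Other leading genes were at moderate levels in both groups. Itgae, which encodes CD103, the alpha chain of an E-cadherin-binding integrin, was at 46.1, 35.6 and 36.9 CPM against 7.36, 14.5 and 6.79 (log2 2.21, SE 0.21, adjusted p = 5.04e-06). Ffar2, a receptor for short-chain fatty acids, was at 105, 128 and 79.7 CPM against 23.1, 31.6 and 26.9 (log2 1.98, SE 0.14, adjusted p = 2.15e-07), and 65.9% of members held it. Prkcb, a protein kinase C, was at 46.1 ± 3.06 CPM against 11.2 ± 0.938 (4.04-fold). Pglyrp1, a peptidoglycan recognition protein, was 6.69-fold higher, Asb2, a subunit of ubiquitin ligases, 6.05-fold, Sept1, a septin, 4.88-fold, and the long non-coding RNA 4933433H22Rik 4.10-fold. For all of these 10 genes the lowest library of the subset lay above the highest of other cDC2s, as it did for 13.0% of all genes tested. Itgae, Asb2, Sept1, Shisa9, Cyp7b1, Pglyrp1 and the other 4 stayed past the threshold under every alternative in which they were tested. Itgae, Pglyrp1 and Sept1 were not particular to the subset, since cDC1s held 160 ± 12.8, 44.0 ± 3.31 and 19.6 ± 1.62 CPM of them. NK cells held 161 ± 17.8 CPM of Pglyrp1, 345 ± 25.6 of Sept1 and 33.4 ± 1.02 of Prkcb.

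Among the genes with the largest decreases were several of monocytes and macrophages. Spp1, osteopontin, was at 19.73, 7.84 and 16.97 CPM in the subset and at 105, 98.1 and 71.6 in other cDC2s (log2 -2.53, SE 0.20, adjusted p = 6.93e-07). Fcgr3, a low-affinity IgG receptor, was at 29.9, 21.1 and 45.7 CPM against 82.8, 99.2 and 97.5. Itgb5, an integrin chain used in uptake of dying cells, was 4.30-fold lower, Hacd4, an enzyme of fatty acid elongation, 3.34-fold, Anxa3, an annexin, 3.20-fold and Nupr1, a stress-induced nuclear protein, 3.03-fold. The summed macrophage list moved with these genes, at 116 to 256 CPM against 275 to 321, and the part of admixed cells in them was not tested.

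A few of the lower genes rested on 1 library or 1 setting. Thbs1, thrombospondin 1, was at 10.4, 4.82 and 36.9 CPM against 47.2, 46.9 and 51.2, and its adjusted p of 0.00246 rose to 0.164 without the WT library and to 0.429 in DESeq2. Hpgd, a prostaglandin-degrading enzyme, was 2.90-fold lower, with an adjusted p of 0.122 without the WT library. Ccl2, a monocyte-attracting chemokine, was at 65.6 ± 28.5 CPM against 162 ± 23.8 (2.65-fold lower) and no longer passed when members with Cd7 or Siglech were left out (adjusted p = 0.2). Itgb5 no longer passed after thinning (adjusted p = 0.134). In the sGSN-/-Clec9a-/- library 4 cells held all 50 UMIs of Thbs1.

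**Figure D2:**
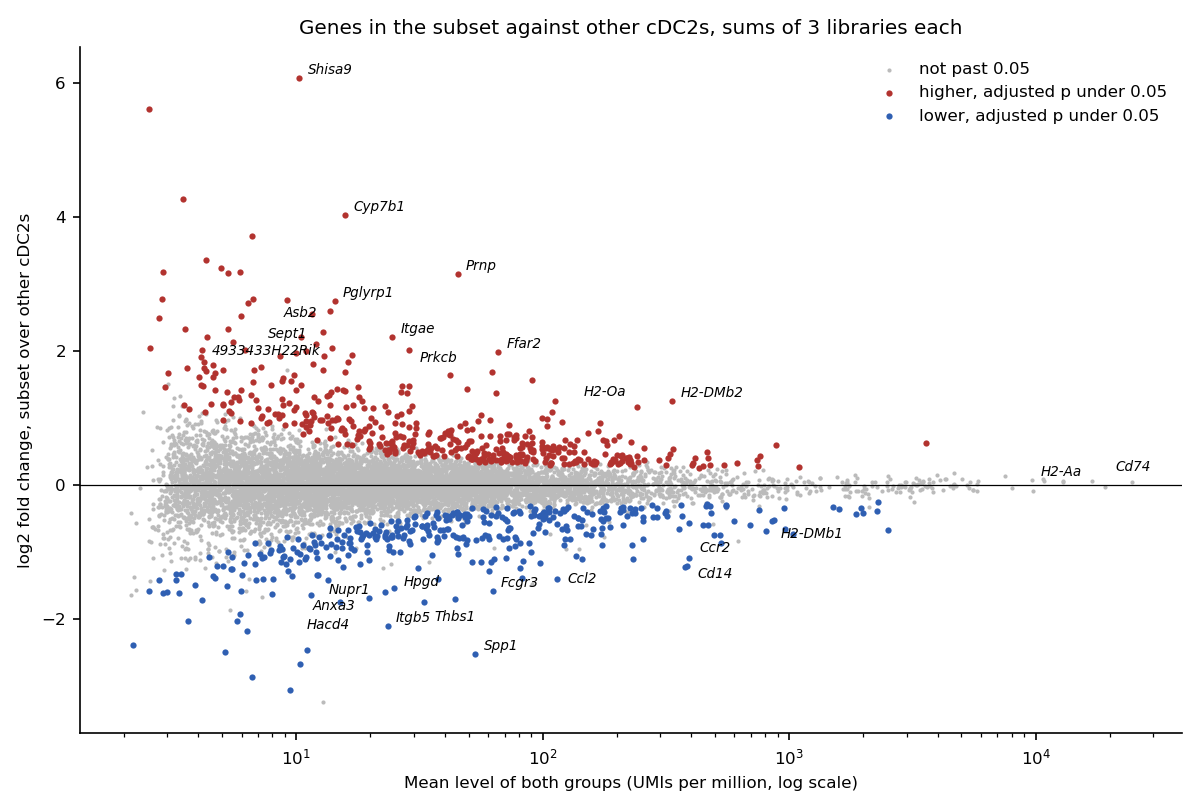
Mean level of both groups (x axis, CPM, log scale) and log2 fold change of the subset over other cDC2s (y axis) for each tested gene. Red and blue points are the 456 higher and 378 lower genes; Shisa9, Cyp7b1 and Prnp lie highest among the labelled genes, Spp1 lowest, and H2-Oa and H2-DMb2 are above 1 while H2-Aa and Cd74 lie near 0.

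Most MHC class II genes did not pass, and those that did went in both directions. Of the classical presentation genes, H2-Aa, a chain that binds peptide, was at 9982 ± 151 CPM against 9414 ± 95.4 in other cDC2s (log2 0.07, adjusted p = 0.661) and the invariant chain Cd74 had a log2 fold change of 0.05 (adjusted p = 0.803), and neither passed. Of the 5 accessory chain genes, H2-Oa, H2-Ob and H2-DMb2 were higher, H2-DMb1 was lower and H2-DMa did not pass. H2-Oa and H2-Ob form the H2-O dimer, which restrains the peptide exchange factor H2-M. H2-Oa was at 332.8, 351.5 and 325.3 CPM against 152.2, 139.5 and 152.3 (2.24-fold higher, adjusted p = 2.15e-07), and H2-Ob at 138.3, 141.7 and 123.9 against 72.7, 73.4 and 72.1 (1.84-fold, adjusted p = 9.12e-06).

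The 2 genes for the beta chain of H2-M moved in opposite directions. H2-DMb2 was at 487.3, 502.9 and 431.5 CPM in the subset and at 210.2, 220.9 and 163.8 in other cDC2s (2.37-fold higher, log2 SE 0.09, adjusted p = 4.00e-07). H2-DMb1 was at 727.4, 669.9 and 691.9 CPM against 1041, 1027 and 954.9 (1.46-fold lower, adjusted p = 0.000198). In both genes no library of the subset overlapped one of the other cDC2s, beside 13.0% of all genes in the higher direction and 10.8% in the lower. These neighbouring genes are alike in sequence, and reads shared between them can be split or dropped by the counting, so each level alone is uncertain. The alpha chain gene H2-DMa was at 1014 CPM against 949 (log2 0.08, adjusted p = 0.62).

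Of the 14 genes of MHC class II presentation, all tested, 4 were higher (the fourth was H2-Eb2, of the E locus, at 13.3 ± 2.47 CPM against 6.19 ± 1.68, whose adjusted p of 0.0167 became 0.132 without the WT library) and 1 was lower. Their median log2 fold change was 0.12 against 0.00131 for all genes tested, of which 4.81% were higher and 3.98% lower. H2-Oa and H2-DMb2 were found in 93.4% and 96.6% of members, so that, unlike Shisa9, they were spread over the subset. H2-Oa was at 78.2 CPM and H2-DMb2 at 58.4 CPM in cDC1s, below their levels in other cDC2s, whereas H2-Ob was at 156 CPM there.

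**Figure D3:**
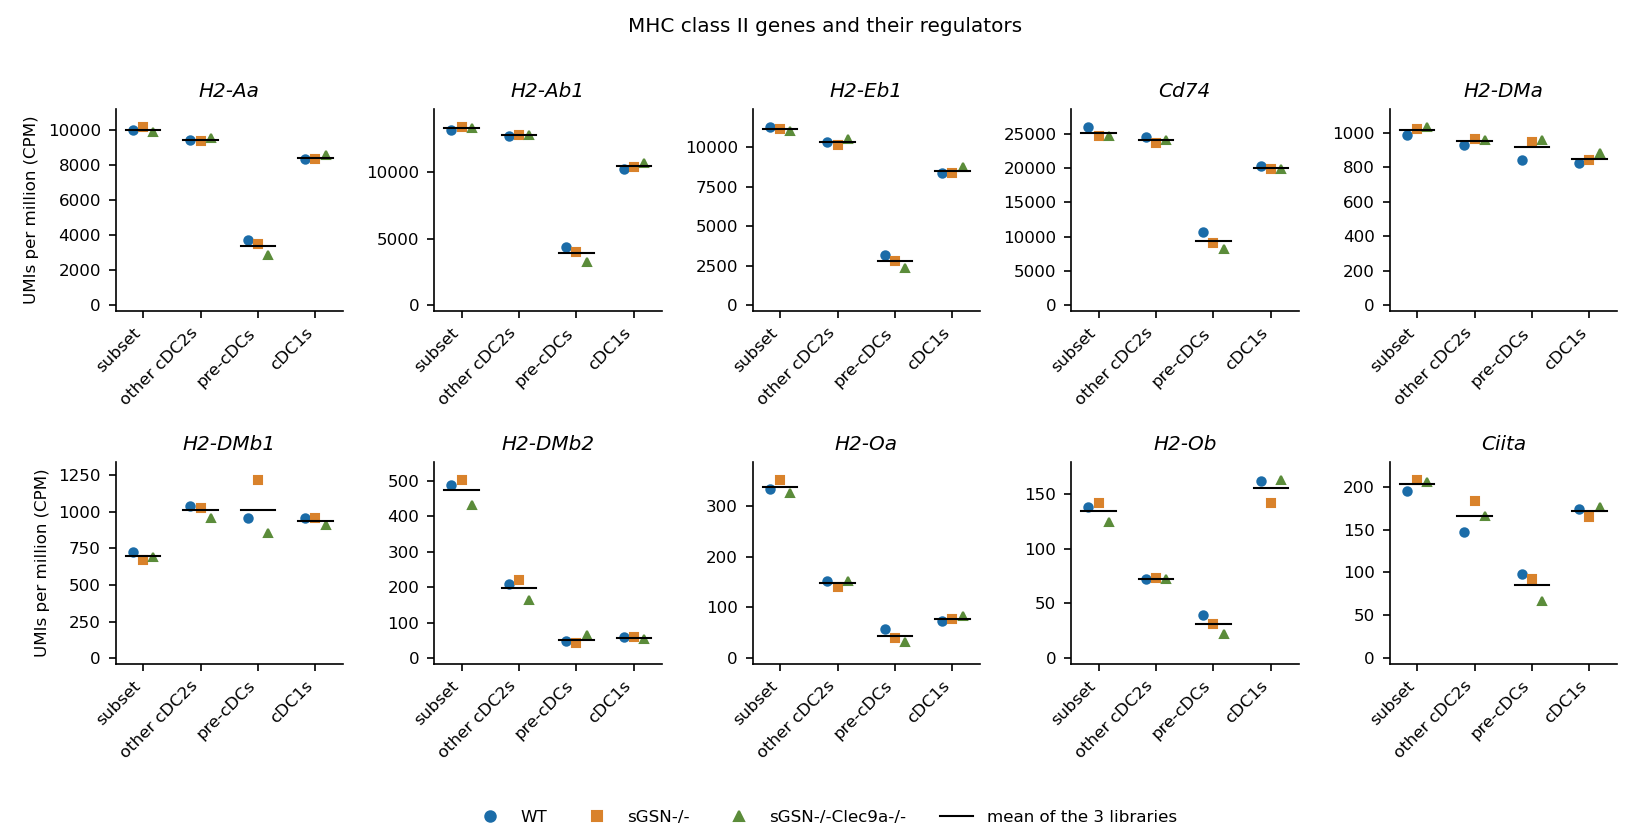
Levels of 10 MHC class II genes and regulators (y axes, CPM, from 0) in the subset, other cDC2s, pre-cDCs and cDC1s, with symbols for the 3 libraries and lines for their means. H2-Oa and H2-DMb2 were highest in the subset in every library, H2-DMb1 was at 696 CPM there and 1007 in other cDC2s, and H2-Aa was at 9982 and 9414.

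Of 14 monocyte-like genes, all tested, 9 were lower and the other 5 did not pass, with a median log2 fold change of -0.74, beside 3.98% of all genes lower. Cd14, a co-receptor for lipopolysaccharide, was at 215.9, 252.0 and 239.0 CPM against 564.4, 519.6 and 517.4 (log2 -1.20, SE 0.09, adjusted p = 2.15e-07). Ccr2, the receptor by which monocytes leave the marrow, was at 221.5, 244.2 and 295.1 CPM against 544.0, 541.4 and 502.3 (log2 -1.09, SE 0.10, adjusted p = 5.59e-06). Cx3cr1, the fractalkine receptor, was 2.22-fold lower. Fcgr3, Fcgr1, Csf1r, Ifitm3 and Ms4a4c were also among the lower genes, and leaving out 1 library at a time left 6 to 9 lower. Without the WT library the adjusted p was 0.226 for Csf1r, 0.108 for Fcgr1 and 0.198 for Ms4a4c. Ms4a4c also had an adjusted p of 0.0998 without the sGSN-/-Clec9a-/- library. Klf4, which is needed by a part of the cDC2s, was at 416 ± 45.3 CPM against 457 ± 46.8 and did not pass (adjusted p = 0.399).

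Of the lymphotoxin beta receptor pathway, 12 of 15 genes were tested, of which 3 were higher and 1 lower (median log2 0.11), beside 4.81% and 3.98% of all genes. The higher ones, Map3k14, Birc2 and Relb, act in its non-canonical NF-kB arm, of which Nfkb2 (adjusted p = 0.0537), Traf3 (0.559), Traf2 (0.999) and Birc3 (0.864) did not pass. Map3k14, the kinase NIK, was at 111.1, 115.8 and 90.7 CPM against 70.2, 57.8 and 61.2 (1.65-fold, adjusted p = 0.000331). Birc2, the ubiquitin ligase cIAP1 that keeps NIK low, was at 52.3, 56.1 and 48.7 CPM against 29.3, 36.3 and 24.6 (1.75-fold, adjusted p = 0.00058). Relb, the NF-kB subunit at its end, was at 59.6 ± 10.8 CPM against 38.8 ± 6.93 (adjusted p = 0.0076, and 0.112 without the WT library). The groups did not overlap in Map3k14, Birc2 or Relb, beside 13.0% of all genes without overlap in the higher direction. The lower gene, Tnf, was at 37.0 CPM against 57.3 (adjusted p = 0.0191), and its adjusted p was 0.0869 without the sGSN-/- and 0.123 without the sGSN-/-Clec9a-/- library.

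Of 21 transcription factors of dendritic cells, 18 were tested, 8 were higher and 2 lower (median log2 0.27), beside 4.81% and 3.98% of all genes. Tcf4, the factor that specifies plasmacytoid dendritic cells, was at 158.7, 162.2 and 135.0 CPM against 94.9, 101.4 and 88.1 (1.60-fold, adjusted p = 0.000127). It was at 181 CPM in members with Cd7 and 119 in those without, and did not pass when cells with Cd7 or Siglech were left out (adjusted p = 0.205). Zbtb46, a factor that marks conventional dendritic cells, was at 31.9 ± 1.92 CPM against 18.9 ± 0.994 (adjusted p = 0.00241, and 0.082 without the WT library), and Nr4a3 was 1.47-fold higher (adjusted p = 0.000471). Irf4, which cDC2s require, was at 49.0 ± 4.70 CPM against 42.1 ± 5.43 and did not pass (adjusted p = 0.291). Irf8 was 1.41-fold lower (adjusted p = 0.0241), a call lost without the WT library (0.0993) or the sGSN-/- library (0.23). Zeb2 was 1.53-fold lower (adjusted p = 0.0053), a call also lost without either of these libraries (0.0577 and 0.0566). The other 5 higher factors were Relb, Cbfa2t3, Runx3, Id2 and Spi1, at 1.20- to 1.53-fold. Without the WT library the adjusted p was 0.0941 for Cbfa2t3, 0.263 for Runx3, 0.213 for Id2 and 0.434 for Spi1. Runx3 (0.0951) and Spi1 (0.183) were also lost without the sGSN-/- library, and Id2 (0.187) and Spi1 (0.0526) without the sGSN-/-Clec9a-/- library. Leaving out 1 library at a time left 2 to 6 of the list higher.

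Of 13 costimulatory and inhibitory ligands, 11 were tested, 4 were higher and the other 7 did not pass (median log2 0.23), beside 4.81% of all genes higher. The list of activated dendritic cell markers without Ccr7 moved with them, summing to 47.4 to 131 CPM in members against 27.6 to 40.0 in other cDC2s. An alternative chosen after the data were seen left out cells with Il12b or Fscn1, and called 432 genes higher and 362 lower. Of the named and listed log2 fold changes of both comparisons, 198 then kept direction and side and 3 no longer passed. The part of the whole list in the ligands was not tested. Pdcd1lg2, PD-L2, was at 14.4, 14.5 and 11.8 CPM against 3.80, 4.72 and 2.35 (3.77-fold, adjusted p = 0.00014). Cd274, PD-L1, was at 29.9, 37.4 and 25.1 CPM against 8.97, 19.3 and 16.2 (2.27-fold, adjusted p = 0.00331, and 0.0815 without the WT library). Tnfsf4, OX40 ligand, was at 6.87, 10.9 and 6.64 CPM against 3.22, 0.727 and 1.83 (adjusted p = 0.00786, and 0.0582 without the sGSN-/- library). Neither Pdcd1lg2, Cd274 nor Tnfsf4 overlapped between the groups, beside 13.0% of all genes without overlap in the higher direction. Cd86 was 1.27-fold higher (adjusted p = 0.00966, and 0.297 without the WT library), and Cd40 was at 30.3 ± 4.08 CPM against 23.1 ± 5.01 (adjusted p = 0.16). Without the WT library 2 of the list were higher.

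Of 15 chemokine and migration receptors, 8 were tested, 2 were higher and 3 lower (median log2 -0.19), beside 4.81% and 3.98% of all genes. Ccr9 was low in both groups, at 4.91 ± 0.501 CPM against 0.645 ± 0.588 (adjusted p = 0.00254, and not tested for low counts without the WT library), and pre-cDCs held 24.9 ± 5.02. Gpr183, the oxysterol receptor EBI2 that positions cDC2s in lymphoid organs, was at 292 ± 26.3 CPM against 225 ± 26.5 (adjusted p = 0.0138). This call was lost without the WT library (adjusted p = 0.369), and the log2 fold change was -0.06 when members were held to the same conditions on cDC2 genes, Cd7 and Siglech as the other cDC2s. Lower were Ccr2 and Cx3cr1, given above, and Cxcr4 (1.74-fold, adjusted p = 0.00107, and 0.0777 without the WT library).

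Of 21 cytokines and chemokines, 15 were tested, with 1 higher and 1 lower (median log2 -0.27), beside 4.81% and 3.98% of all genes. The lower count rose to 2 without the WT or the sGSN-/- library and to 4 without the sGSN-/-Clec9a-/- library, and 2 were higher without the WT library. Ccl5 was at 92.7, 133.9 and 56.1 CPM against 21.4, 26.9 and 42.1 (3.22-fold, adjusted p = 0.000267). Cxcl16 was at 208 ± 21.1 CPM against 302 ± 5.08 (adjusted p = 0.00054), and at an adjusted p of 0.638 without members with Cd7 or Siglech. Of 14 genes of the TIM family and phosphatidylserine uptake other than Timd4, 9 were tested, Cd300a was higher (277 ± 34.3 CPM against 178 ± 6.12, adjusted p = 0.000247), and Axl, Itgb5 and Stab1 were lower (median log2 -0.65). Axl, a receptor tyrosine kinase for dying cells, was at 33.1 ± 6.83 CPM against 70.6 ± 6.78 (2.21-fold lower, adjusted p = 4.09e-05). Stab1 was under 7 CPM in both groups and lost its call without the WT library (adjusted p = 0.292) or without the sGSN-/-Clec9a-/- library (0.118).

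The relatives of Tbc1d4 and Adam23 are given next, beside 4.81% of all genes higher and 3.98% lower. Of 14 further TBC1 and Rab genes, 2 were higher and 12 did not pass (median log2 0.14), these being Tbc1d9 (1.35-fold, adjusted p = 0.00753, and 0.204 without the WT library) and Tbc1d10c (1.52-fold, adjusted p = 0.042, 0.704 without the WT library and 0.0914 without the sGSN-/-Clec9a-/- library). Of 9 further ADAM genes, 6 were tested, and Adam15 was lower (1.76-fold, adjusted p = 0.000812, and 0.09 without the WT library) and none higher, although 1 was higher without the sGSN-/- or the sGSN-/-Clec9a-/- library. Of 13 genes of T-bet-dependent or Notch2-dependent cDC2s, 6 were tested and Rbpj alone passed, being lower (1.27-fold, adjusted p = 0.0157), a call lost without the WT library (0.238) or the sGSN-/- library (0.102). Of 6 tested cDC2 surface genes outside the rule, Clec12a was higher (adjusted p = 0.0486, and 0.126 to 0.198 without any 1 library) and Clec4a2 lower (adjusted p = 0.00647, and 0.319 without the WT library).

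Genes of cycling, interferon response and dissociation varied with the library left out. Of 12 cell cycle genes, all tested, Mcm5, Mcm6 and Tyms were lower (1.70-, 1.49- and 1.70-fold; median log2 of the list -0.28), beside 3.98% of all genes, and Mki67 was at 58.1 ± 29.6 CPM against 61.5 ± 7.10 (adjusted p = 0.797). Without the sGSN-/- library 9 of the 12 were lower, and without the WT library 1. Without the WT library Mcm6 had an adjusted p of 0.247 and Tyms of 0.376, and Tyms also 0.0824 without the sGSN-/-Clec9a-/- library. Of 12 interferon-stimulated genes, edgeR's quasi-likelihood test called none in either direction and DESeq2 none, with 1 higher and 3 lower at an unadjusted p under 0.05, while edgeR called 1 lower when any 1 library was left out. Of 15 immediate early and heat shock genes, Jund (1.23-fold) and Dusp1 (1.51-fold) were lower, and 5 were lower without the sGSN-/-Clec9a-/- library. Jund was lost without the WT library (adjusted p = 0.378) or the sGSN-/- library (0.222). Kit, the receptor for stem cell factor, which stood in the list of neutrophils and mast cells, was at 169.6, 145.3 and 157.1 CPM in the subset and at 57.0, 76.3 and 68.2 in other cDC2s (2.37-fold higher, adjusted p = 2.73e-06). It was found in 81.9% of members, and cDC1s held 107 CPM of Kit.

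**Figure D4:**
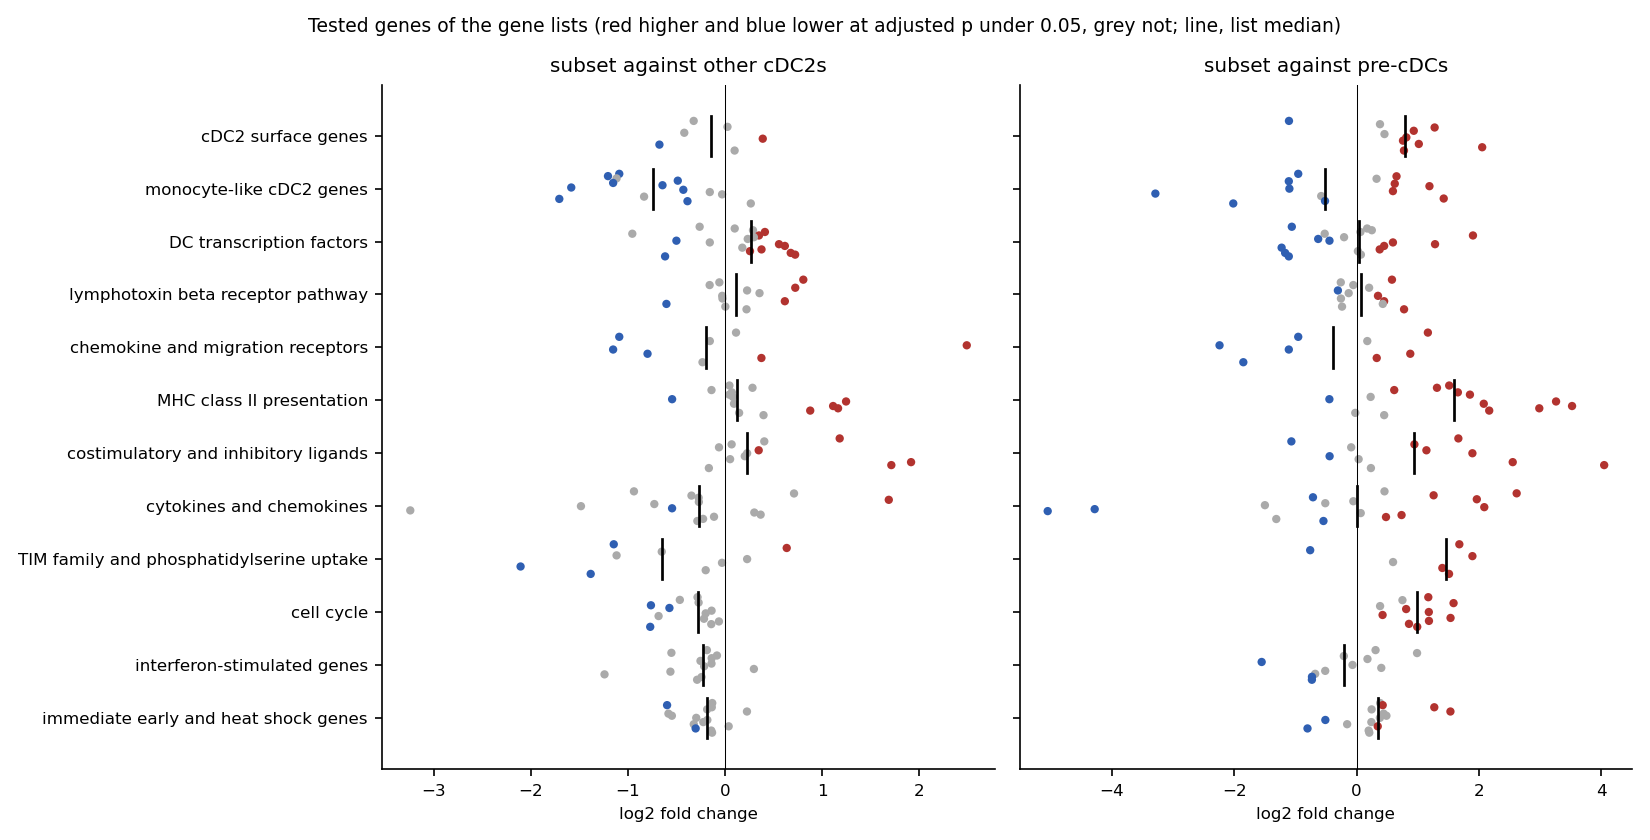
Log2 fold change (x axis) of each tested gene of 12 lists, against other cDC2s on the left and against pre-cDCs on the right, with red points higher, blue lower and grey not past an adjusted p of 0.05, and a line at the median of each list. The monocyte-like list lies at -0.74 on the left, and the MHC class II list moves from 0.12 on the left to 1.59 on the right.

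The second comparison asked how the subset differed from the precursors in the same sort, with which it shared Cd7 in 239 members. Pre-cDCs were gate cells with at most 1 rule gene, at least 1 UMI each of Cd7 and of 1 further gene of precursors, and none of Siglech (402 cells: 179, 98 and 125 by library). Pre-cDCs had a median of 10435, 10726 and 9177 UMIs per cell, below that of members in each library. Both comparisons use the same subset sums, so their values are set side by side and not counted together. Of 8039 genes tested, 1107 (13.8%) were higher and 964 (12.0%) lower in the subset, or 25.8% in either direction. With library sizes alone and no TMM factors, the calls were 872 higher and 1233 lower, so that the balance of directions depended on the scaling, and small changes and list counts below rest on the TMM scaling. The values of the libraries did not overlap for 15.9% of genes upwards and 24.8% downwards. Without the WT library the calls were 615 higher and 515 lower.

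Several of the leading higher genes were held by other cDC2s too. Mmp12, a macrophage elastase, was at 23.3, 28.3 and 25.1 CPM in the subset and counted 1 time in all pre-cDCs (0.479 CPM in WT and 0 in the other 2 libraries). It was as high in other cDC2s (24.9 ± 3.28 CPM), as was Dcstamp, a protein of cell fusion (63.6 ± 11.2 CPM in the subset, 64.7 ± 8.81 in other cDC2s and 6.06 ± 2.91 in pre-cDCs, 10.1-fold). By contrast, Itgae was at 2.38 ± 0.761 CPM in pre-cDCs (17.3-fold, adjusted p = 1.49e-07) and Asb2 was 13.9-fold higher, and both were higher than in other cDC2s too. In cDC1s Itgae was at 160 ± 12.8 CPM, above the subset, and Asb2 at 10.5 ± 0.728. Ppp1r1a, a phosphatase inhibitor, was at 22.8, 25.9 and 29.5 CPM in the subset against 1.44, 0 and 1.499 in pre-cDCs (log2 4.53, SE 0.41, adjusted p = 1.70e-06). It was at 6.32 ± 2.43 CPM in other cDC2s. Also among the 10 largest were 4933433H22Rik, Arhgap24, Spns3, Rgs12 and 2900026A02Rik, at 11.2- to 20.8-fold.

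Genes of the precursors led the lower ones. Gria3, a glutamate receptor subunit, was at 1.33, 1.21 and 0 CPM in the subset and at 36.4, 27.6 and 27.0 in pre-cDCs (log2 -4.72, SE 0.36, adjusted p = 4.82e-07). Cd209e and Cd209d, lectins related to DC-SIGN, were 16.9-fold and 9.69-fold lower, and Crip2 and Cd300c 15.9-fold and 14.9-fold. Ly6c2, a marker of monocytes and of part of the pre-cDCs, was at 32.8, 60.9 and 16.97 CPM against 271, 430 and 445 (adjusted p = 9.98e-07). In other cDC2s Gria3 was at 2.11 CPM, Cd300c at 1.07 and Ly6c2 at 35.6, all below the pre-cDCs. Cxcl9 varied widely among pre-cDCs, at 80.9, 23.9 and 10.49 CPM, and was 19.5-fold lower in the subset, which held 15 UMIs of it in all. Upb1, Rasgrp2 and Nupr1 made up the list, at 8.63- to 12.7-fold.

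By function, 10 of 14 MHC class II genes were higher and 1 lower than in pre-cDCs (median log2 1.59, beside 0.00428 for all genes tested and 13.8% higher and 12.0% lower). H2-DMb2 was 9.59-fold higher (52.3 ± 11.5 CPM in pre-cDCs, adjusted p = 4.66e-09), H2-Oa 7.93-fold (adjusted p = 8.06e-09), H2-Aa 3.15-fold and Cd74 2.86-fold. H2-DMb1 was the lower gene (1.36-fold, adjusted p = 0.00669), and its adjusted p was 0.137 without the sGSN-/- library. Of 10 tested cDC2 surface genes 7 were higher and 1 lower (median log2 0.79). Of 11 tested costimulatory and inhibitory ligands, 6 were higher and 2 lower (median 0.95): Cd86 was 2.21-fold and Cd274 3.17-fold higher, and Cd40 2.09-fold lower. Without the WT or the sGSN-/- library 1 ligand was lower. The cell cycle list had 9 of 11 tested genes higher, and the other 2 did not pass (median 0.99), with 3 higher without the sGSN-/- library. Over all alternatives, 1 to 12 genes of this list were higher.

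The monocyte-like list was divided against pre-cDCs, with 5 of 13 genes higher and 6 lower (median log2 -0.52), beside 13.8% and 12.0% of all genes. Without the WT or the sGSN-/-Clec9a-/- library 3 were higher. Ccr2 was lower here as well (1.94-fold, adjusted p = 2.12e-05), as was Cx3cr1 (2.16-fold, adjusted p = 4.47e-05). Cd14 was 1.57-fold higher than in pre-cDCs (adjusted p = 0.000646), so that the subset lay between pre-cDCs (158 ± 15.8 CPM) and other cDC2s (534 ± 26.5). That call was lost, at a log2 fold change of -0.07, after thinning. Tcf4 was 2.25-fold lower than in pre-cDCs (adjusted p = 3.77e-06), Ccr9 4.73-fold lower and Kit 5.16-fold higher (32.3 ± 1.62 CPM in pre-cDCs, adjusted p = 1.54e-08). Map3k14 was at 98.1 ± 14.8 CPM in pre-cDCs and did not differ past the threshold (adjusted p = 0.255). Neither did Zbtb46 (adjusted p = 0.826).

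How these genes varied with the number of rule genes in a cell was described over all gate cells, each thinned to 5000 UMIs so that depth did not set the number. The bins held 1537 cells with none, 651 with 1, 239 with 2, 88 with 3 and 48 with 4 or more, the last with 26, 11 and 11 cells by library and so only roughly measured. H2-DMb2 was at 93.2, 198, 375, 561 and 657 CPM over these bins, and H2-Oa at 84.1, 167, 290, 387 and 431. Kit was at 57.7, 100.03, 142, 197 and 231 CPM. Ffar2 was at 17.7, 41.6, 110, 129 and 154 CPM. In all 4 genes the mean was higher in each bin than in the one before it. The mean of the bin of 2 rule genes was closer to that of 3 than to that of none. Thinning moved members into the lower bins, since 78, 32 and 26 cells by library met the rule after it, against 273, 105 and 91 before. The lower bins thus hold members, and these values cannot show how cells just outside the threshold compare with members. Prnp, at 24.6, 36.6, 92.4, 99.4 and 165 CPM, and Shisa9, at 1.76, 9.87, 15.4, 16.6 and 31.9, also had a higher mean in each bin. In the sGSN-/- library, however, both were lower with 3 rule genes than with 2. The means of Itgae, Cyp7b1 and Epcam did not follow this order at each step. Itgae was at 21.6, 47.2, 36.9, 64.3 and 92.8 CPM, Cyp7b1 at 27.1, 39.1, 39.2, 33.8 and 48.3, and Epcam, an adhesion protein, at 8.93, 13.7, 23.9, 35.0 and 31.0.

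Of 4 monocyte genes, the means of Ccr2 and Lyz2 were lower in each bin than in the one before and those of Cd14 and Fcgr3 were not. Ccr2 was at 449, 344, 283, 108 and 90.0 CPM, and Lyz2, lysozyme, at 477, 343, 309, 96.7 and 31.9. Cd14 was at 220, 258, 177, 150 and 53.4 CPM and so was higher with 1 rule gene than with none. Fcgr3 was at 26.6, 23.6, 34.2, 3.17 and 0 CPM, and so was higher with 2 rule genes than with 1. For the means of Ccr2, Lyz2 and Fcgr3 the step from 2 to 3 rule genes was larger than that from 1 to 2. The libraries differed in it: from 2 to 3 rule genes Lyz2 went from 534.8 to 40 CPM in the sGSN-/-Clec9a-/- library, from 225.7 to 69.2 in WT and from 166.0 to 181.0 in sGSN-/-. Gate cells without rule genes include pre-cDCs, and these values are a description with no test.

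**Figure D5:**
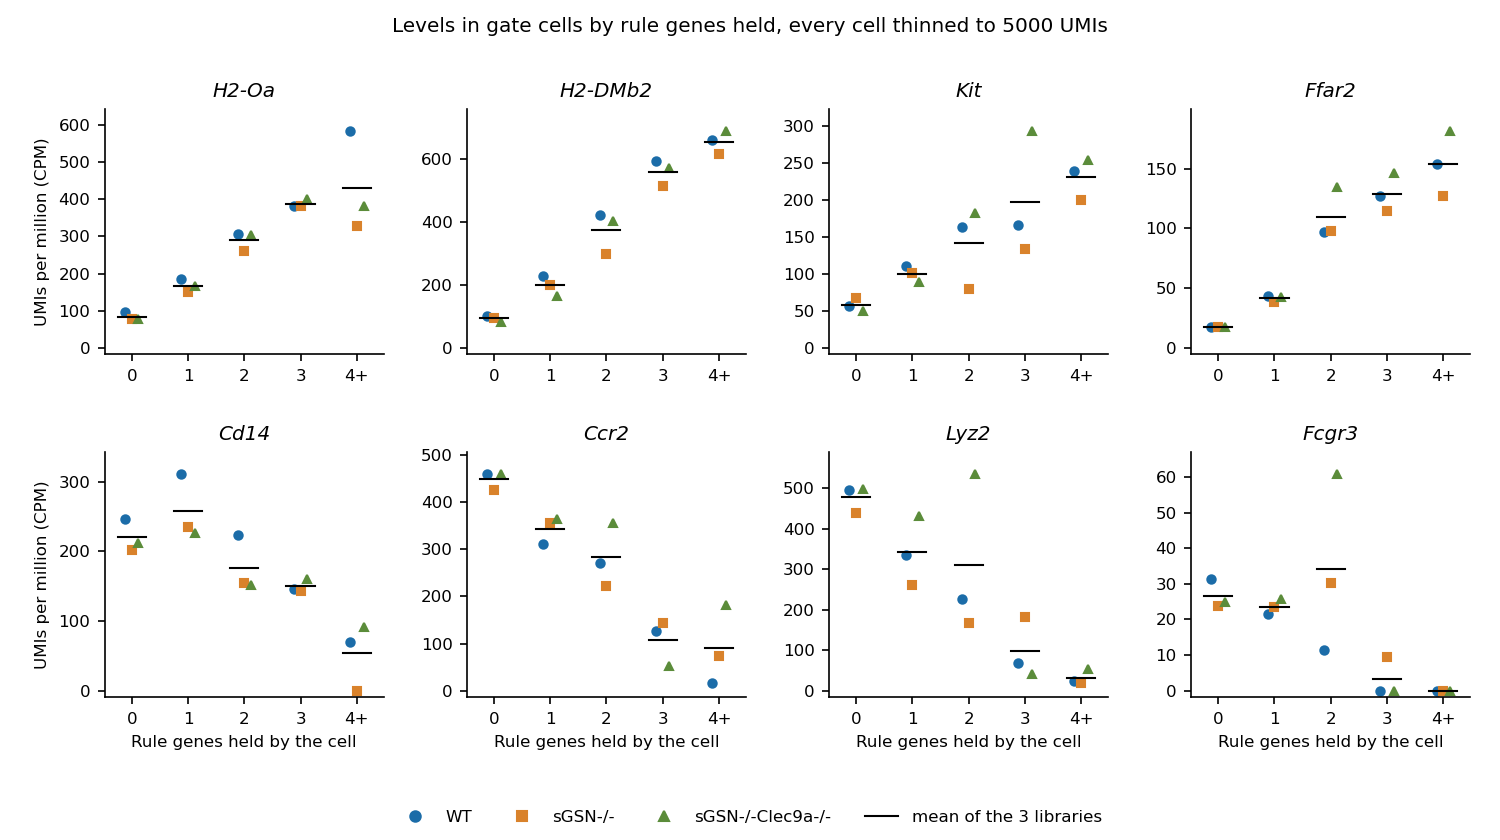
Levels of 8 genes (y axes, CPM, from 0) by the number of rule genes that a gate cell held after thinning to 5000 UMIs (x axes). Symbols are the 3 libraries and lines their means; the means of H2-Oa, H2-DMb2, Kit and Ffar2 were higher and those of Ccr2 and Lyz2 lower in each bin than in the one before, and the bin of 4 or more holds 48 cells.

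Between genotypes, members were chosen by the rule genes in each library, so the levels of these are a description. With 1 library per genotype no test was made, and ratios are log2 of CPM with 0.5 CPM added. The ratios of the 7 rule genes lay between -0.28 (Timd4) and 0.24 (Lysmd2) for sGSN-/- against WT. For sGSN-/-Clec9a-/- against sGSN-/-, a contrast that shares the sGSN-/- library, they lay between -0.59 (Lysmd2, 27 against 50 UMIs) and 0.22 (Ltb). Clec9a itself was at 29, 9 and 0 UMIs in the members.

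Of 2747 genes at 50 CPM or more in either library, 11 (0.4%) were at least 2-fold higher and 4 (0.146%) at least 2-fold lower in sGSN-/- than in WT members. The same counts in other cDC2s were 5 and 4, and the median size of the log2 ratio was 0.12 in the subset and 0.10 in other cDC2s. Several of the largest ratios rested on single cells. Cxcl10, an interferon-induced chemokine, was at 109.7 CPM (95% Poisson interval 94.4 to 126.9) in sGSN-/- and 21.5 (17.4 to 26.2) in WT members, and 174 of its 182 UMIs in sGSN-/- were in 1 cell. Of the 194 UMIs of Apoe in sGSN-/- members, 169 were in 1 cell, and of the 99 of Ccl17, 59 were. The histone genes Hist1h1b and Hist1h2ae, expressed in S phase, had log2 ratios of 1.59 and 1.44, and the 5 highest of 105 cells held 87.6% and 87.9% of their UMIs.

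Downwards, Retnla had a log2 ratio of -3.13 (9 UMIs in sGSN-/- against 232 in WT members), with 223 of the 232 in 1 cell. Mt2, a metallothionein, was at 16.3 CPM (10.7 to 23.7) in sGSN-/- and 55.4 (48.8 to 62.7) in WT members, and 1 WT cell held 81 of its 250 UMIs. Fabp5, a fatty acid binding protein, was at 72.4 CPM (59.99 to 86.5) against 149.0 (137.9 to 160.7) while its ratio in other cDC2s was 0.38. Polr2l, a subunit of RNA polymerases, had a log2 ratio of -1.09, and of -0.02 in other cDC2s.

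Between sGSN-/-Clec9a-/- and sGSN-/- members, of 2749 genes 21 (0.764%) were at least 2-fold higher and 16 (0.582%) at least 2-fold lower, against 2 and 14 in other cDC2s. Retnla (log2 ratio 5.43), Lpl (4.12), Fcrls (2.50) and Ear2 (2.23) led the higher genes, all 4 of which mark a further population of this sort. Their sum over the members was 45.8 to 503 CPM by library, against 3281 to 4151 in the cells of that population, and 5 sGSN-/-Clec9a-/- members held 343 of the 345 UMIs of Retnla. The part of such cells or of their free RNA was not tested. Areg, amphiregulin, had a ratio of 2.06, with 85 of its 193 UMIs in 1 cell. Lower were Cxcl10 (-2.60), with the single sGSN-/- cell named above, Ube2c (-2.34), Fxyd7 (-1.92), Hist1h2ae (-1.83) and Jdp2, at 12.5 CPM (7.31 to 20.1) against 51.9 (41.5 to 64.0). Jdp2, an AP-1 family repressor, was found in 13 of 91 members of the sGSN-/-Clec9a-/- library and in 41 of 105 of the sGSN-/- library, and had a ratio of -1.03 in other cDC2s.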

How the data were processed

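The single-cell RNA-seq libraries of 3 genotypes were analysed from the raw UMI counts that the authors deposited per gene and barcode (Cell Ranger 6.0.1 per the matrix headers, mm10). The deposited table of cDC1s, made by the authors in Seurat (4.0.0 in the submitters' processing notes), gave library, cluster, UMI counts and UMAP coordinates (a score) of each cDC1, and only its barcodes and clusters were used. All other cell groups were rebuilt here from fixed genes without clustering, in Python 3.11.15 (scanpy 1.11.5). The members, comparison groups and gene lists were chosen with earlier results of these data known.

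Raw UMI counts were summed per library and group and tested in R 4.3.3 with edgeR 4.0.16 (filterByExpr, TMM, quasi-likelihood F-test, Benjamini-Hochberg at 0.05), with SE as the log2 fold change over the square root of F. On simulated data with 200 changed genes, 78.4% of 2-fold and 100% of 4-fold changes were recovered in the comparison with other cDC2s (9495 genes), and 4.97% of calls were unchanged genes. For pre-cDCs (8031 genes) these were 73.7%, 100% and 5.23%. The simulated counts had the same dispersion for every gene, no difference between libraries but depth, and no choice of cells by their genes. These rates therefore check the code and are not error rates of the calls above. Same-library sums come from the same pooled mice and the library was therefore a pairing by design. The correlations of their deviations were 0.0313 to 0.064 for other cDC2s and 0.0289 to 0.142 for pre-cDCs. C1q macrophages held at least 3 of C1qa, C1qb, C1qc and Apoe and no Flt3, and Retnla and Ear2 cells at least 2 of Retnla, Ear2, Lpl and Fcrls and no Flt3.

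Named genes were the rule genes, the 10 largest and 10 smallest log2 fold changes among genes past 0.05 with at least 20 CPM in the higher group, the 5 largest and 5 smallest genotype ratios among genes with at least 50 CPM, and members of fixed lists. Doublets were not removed in the main results; Scrublet made 466, 0 and 0 calls of its own, so the 6% of barcodes with the highest score in each library were left out as an alternative. Intervals are exact 95% Clopper-Pearson or Poisson intervals and cover counting error only. Gene positions are from GENCODE M21. Alternatives covered scaling, tool (DESeq2 1.42.0), filter, library block, each library left out, the rule, depth and doublets. A few genes are not reported here, though they stay in the fits, the counts and the list sums.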

Additional observations from a re-analysis of the deposited data

How the results depend on the processing

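Of 204 named and listed log2 fold changes past the threshold, none changed side with the library as replicate block. Over all alternatives they gave 3224 values of the same direction and side, 386 of the same direction that no longer passed, and 13 of the opposite sign. Fitted with the library as replicate block, which pairs the sums of a library, the counts were 494 higher and 447 lower against other cDC2s and 1259 and 1105 against pre-cDCs, and no count moved by more than 1.5 times.

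Against other cDC2s, DESeq2 called 298 higher and 232 lower, members held to the cDC2 conditions gave 291 and 225, cells chosen on a random part of their UMIs 242 and 209, cells thinned to 5000 UMIs 113 and 147, and members without Cd7 or Siglech (chosen after the data were seen) 224 lower. Against pre-cDCs, DESeq2 called 722 higher, thinning gave 353 and 288, and the random part 480 and 423. Leaving out 1 library at a time gave 123 to 377 higher and 104 to 369 lower genes against other cDC2s, and 615 to 901 and 515 to 772 against pre-cDCs, each lowest without the WT library.

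Members as a share of the gate in the WT, sGSN-/- and sGSN-/-Clec9a-/- libraries were 28.98%, 27.69% and 19.65% with at least 2 rule genes, 6.373%, 6.166% and 4.106% with at least 4, 5.766%, 4.148% and 4.106% under the cDC2 conditions, and 6.156%, 5.479% and 3.652% after thinning. The order of the 3 libraries was the same in each.

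Counts of 2-fold genotype differences moved most. For sGSN-/- against WT, higher genes were 41 at a limit of 20 CPM, 4 with at least 2 rule genes, 37 with at least 4 and 158 after thinning. Lower genes were 2 with 5 CPM added, 11, 1, 9 and 170 in the same order. For sGSN-/-Clec9a-/- against sGSN-/-, higher genes were 40 at 20 CPM, 3 with at least 2 rule genes and 272 after thinning, and lower genes 94, 7 and 342, with 56 at 4 rule genes.

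The sign turned for Id2 (log2 -0.021) and Wdfy4 (-0.15) against cells chosen without cDC2 genes, for Irf8 with at least 2 rule genes (0.27 against other cDC2s and 0.32 against pre-cDCs), and for Ighm (-0.0704) and Cd14 against pre-cDCs (-0.0702) after thinning. It turned for Stmn1 against pre-cDCs without cycling cells (-0.12). It turned under the cDC2 conditions and without members with Cd7 or Siglech, respectively, for Gpr183 (-0.064 and -0.00061) against other cDC2s and for Gpr183 (-0.10 and -0.054) and Apoe (-0.33 and -0.35) against pre-cDCs. The cause was not tested. Thinned libraries hold fewer counts and fewer members, so their calls are limited by depth.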

Other observations

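Some genes were higher in members without Cd7 than in those with it, which is given as values with no test. Ppp1r1a was at 35.4, 39.4 and 45.4 CPM in members without Cd7 of the WT, sGSN-/- and sGSN-/-Clec9a-/- libraries and at 12.2, 15.2 and 8.55 in those with Cd7. Mmp12 was at 33.97, 31.3 and 42.8 CPM without Cd7 and at 14.3, 26.0 and 1.71 with it. Cd14 was at 266.9, 402.3 and 258.3 CPM against 173.1, 132.2 and 213.7. None of these 3 genes overlapped between the 2 sets, but the share of all genes without overlap was not counted. The sGSN-/-Clec9a-/- members with Cd7 were 41 cells with 585039 UMIs in all, so the 1.71 CPM of Mmp12 lies near the floor. Ccr2, by contrast, was at 262 ± 51.9 CPM without Cd7 and 256 ± 96.6 with it. Plac8, a gene of early myeloid cells, took the opposite course, at 240, 169 and 162 CPM without Cd7 and at 523, 538 and 306 with it.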
